A study of Pinus pinaster with 30 samples.

Results

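Polar auxin transport was followed in developing zygotic embryos of *Pinus pinaster* through 8 spots of a pine cDNA microarray, out of 26496 spots on the array. The spots were chosen by their position number because the study's annotation names them as putative homologs of an *Arabidopsis thaliana* auxin influx carrier (AUX1, 3 spots), an efflux carrier (PIN3, 3 spots), a factor of membrane recycling (GNOM, 1 spot) and a modulator of auxin transport (NDL1, 1 spot). Embryos were collected on 5 dates from open-pollinated trees of a clonal orchard, 3 to 5 trees a date. Day0 held early embryos and Day5 pre-cotyledonary ones. Embryos were at the early cotyledonary stage on Day11, cotyledonary on Day15 and mature on Day25. Each day had 3 biological samples, each a pool of 60 embryos, and every sample was run on 2 arrays, 30 in all. Embryo RNA was amplified in sequential rounds and labelled with Cy3. The reference, labelled with Cy5 on every array, mixed all 15 samples in equal amounts (200 ng each). No dye was swapped. The labels do not say whether the samples of a day came from different trees, so the p-values measure the spread between these pools of embryos.

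Auxin enters plant cells partly through AUX1 and LAX influx carriers and leaves them through PIN efflux carriers, which sit on one side of a cell and so give the flow its direction. PIN proteins cycle between the plasma membrane and internal compartments, and in *A. thaliana* the ARF-GEF GNOM, an activator of small GTPases of vesicle budding, is needed for this recycling and for the apical-basal axis of the embryo. In *A. thaliana*, NDL1 binds the beta subunit of the heterotrimeric G protein and modulates auxin transport in roots. In embryos of flowering plants, directed auxin flow is known for its part in setting up the axis and the cotyledons. Transcript levels of these genes say nothing of where the carriers sit.

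The 3 AUX1 spots carry 3 different pine unigenes (91584 for spot 9.2.9.10, 7510 for 9.2.11.22 and 1564 for 8.4.21.22), all with the *A. thaliana* locus AT2G38120 as their best match. The 3 PIN3 spots (3.2.4.5, 6.2.4.14 and 7.1.8.4) all carry unigene 11433, matched to AT1G70940, so that by the annotation they are repeated readings of 1 transcript and not of 3 genes. The GNOM spot 6.4.14.15 carries unigene 5613 (AT1G13980). The NDL1 spot 5.2.21.11 is tied to unigene 19429 (AT5G56750) and also to unigene 5829, which elsewhere on the array is annotated as a xyloglucan endotransglucosylase (XTH), a cell wall enzyme. The cDNAs come from *Pinus taeda*, and a cDNA spot can bind transcripts of related genes as well as its own. Of the 8 spots, 5 were found among the study's tables of changed spots and 3 only in its comparison with *A. thaliana*. The copies of these tables used here are shortened, so more than 5 may have been listed as changed. The paper's text does place a homolog of GNOM among its changed transcripts, without naming the spot. A high count of changed members is thus not independent evidence of change.

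Each value below is a normalized log2 ratio of embryo over reference pool, where 0 means as much label as in the pool and 1 means a doubling. In bulk pools of embryos, fewer cells of a type and less RNA per cell cannot be told apart. The scanner files mark spots of each array as kept or not kept, and 41% to 70.5% of the spots were kept per array. The members were kept on 11 to 28 of the 30 arrays. For 5 members these marks left values in at least 2 samples of every day, and these were tested on the kept values among 14513 spots. AUX1 9.2.9.10, PIN3 6.2.4.14 and PIN3 7.1.8.4 had a kept value in only 1 sample of Day5, Day5 and Day15, respectively, and were taken from the same fit with all values of all 26496 spots, marks ignored. Both signals of every member stood above the local background on every array, by at least 1.31 times for the dimmest spot (AUX1 8.4.21.22, reference channel) and by at least 3.9 times for the other 7. No member spot was at the scanner's upper limit. Samples of Day0 and Day25 had a median correlation of -0.40 over spots. The direction of the ratios rests on the dyes given in the labels, with the pool in the same channel throughout. All 5 spots of late embryogenesis abundant (LEA) proteins, markers of seed maturation that the study had listed as changed, rose from Day0 to Day25, by 1.46 to 3.27 on the log2 scale, where 23.6% of the spots tested on kept values and 25.2% of all values rose.

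AUX1 spot 9.2.9.10 was high on Day0 and low on every later day. Its log2 ratios were 1.62, 1.56 and 0.92 on Day0. On Day5 they were -0.64, -0.94 and -0.72. On Day11 the values were -0.50, -0.94 and -1.13, on Day15 -1.24, -0.80 and -0.76, and on Day25 -0.78, -0.93 and -0.94. No later sample reached the range of Day0, and the 4 later days overlapped one another. From Day0 to Day5 the level fell by 2.13 on the log2 scale (SE 0.20), 4.38-fold, with an adjusted p of 3.21e-05 in limma's fit. The 3 changes after Day5 ranged from -0.09 to 0.05 and none passed the test. The 95% interval of the change from Day11 to Day25 ran from -0.45 to 0.40. The marks had left 3 values on Day0, from 0.70 to 1.67, and 1 on Day5, at -0.80.

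The raw signals of this spot showed the same step without any normalization. In the embryo channel the sample means were 4418 to 5927 scanner units on Day0, 950 to 1656 on Day5 and 800 to 1282 on the later days. The reference channel, which received the same pool on all arrays, stayed between 1180 and 2573. On Day0 the embryo channel was brighter than the pool in all 3 samples, and in all 12 later samples it was dimmer.

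**Figure D1:**
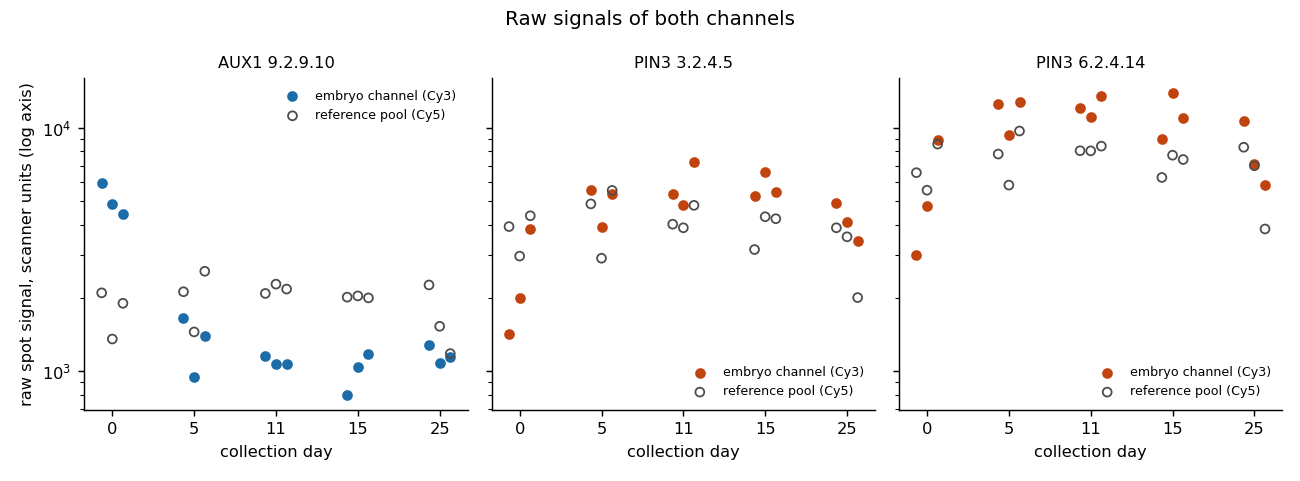
Raw spot signals in scanner units (log axis) against collection day for AUX1 9.2.9.10, PIN3 3.2.4.5 and PIN3 6.2.4.14, with filled points for the embryo channel and open points for the reference pool, each the mean of 2 arrays of 1 sample. The AUX1 embryo signal lies at 4418 to 5927 on Day0 and at 1656 or below afterwards, while the PIN3 embryo signals are lowest in Day0 samples 1 and 2.

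AUX1 spot 9.2.11.22 fell more gently and over a longer time. Its kept log2 ratios were 0.54 and 0.40 on Day0, 0.04, 0.20 and 0.20 on Day5, and -0.13, -0.18 and -0.26 on Day11. They were 0.04 and 0.06 on Day15 and -0.50, -0.24 and -0.28 on Day25. The kept samples of Day0, Day5 and Day11 did not overlap. With marks ignored the Day15 samples read -0.09, -0.62 and -0.11, nearer to Day11. The level fell by 0.66 (SE 0.13) from Day0 to Day11, 1.58-fold (adjusted p = 0.00248), and by 0.81 (SE 0.13) from Day0 to Day25 (adjusted p = 0.000208). The single steps from Day0 to Day5 (-0.33, 95% interval -0.61 to -0.05) and from Day5 to Day11 (-0.33, interval -0.58 to -0.08) did not pass the test, with adjusted p of 0.147 and 0.14.

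AUX1 spot 8.4.21.22, the dimmest member, varied little. Its sample values lay between 0.23 and 0.42 on Day0 and between -0.03 and 0.13 on Day25. All 15 samples together spanned -0.03 to 0.42. None of the 8 day comparisons passed the test, and the 95% interval of the change from Day0 to Day25 ran from -0.52 to -0.02 (adjusted p = 0.071). Its embryo signal was 256 to 620 units on single arrays, and technical arrays of Day15 sample 1 differed by 1.15 on the log2 scale when the marks were ignored.

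**Figure D2:**
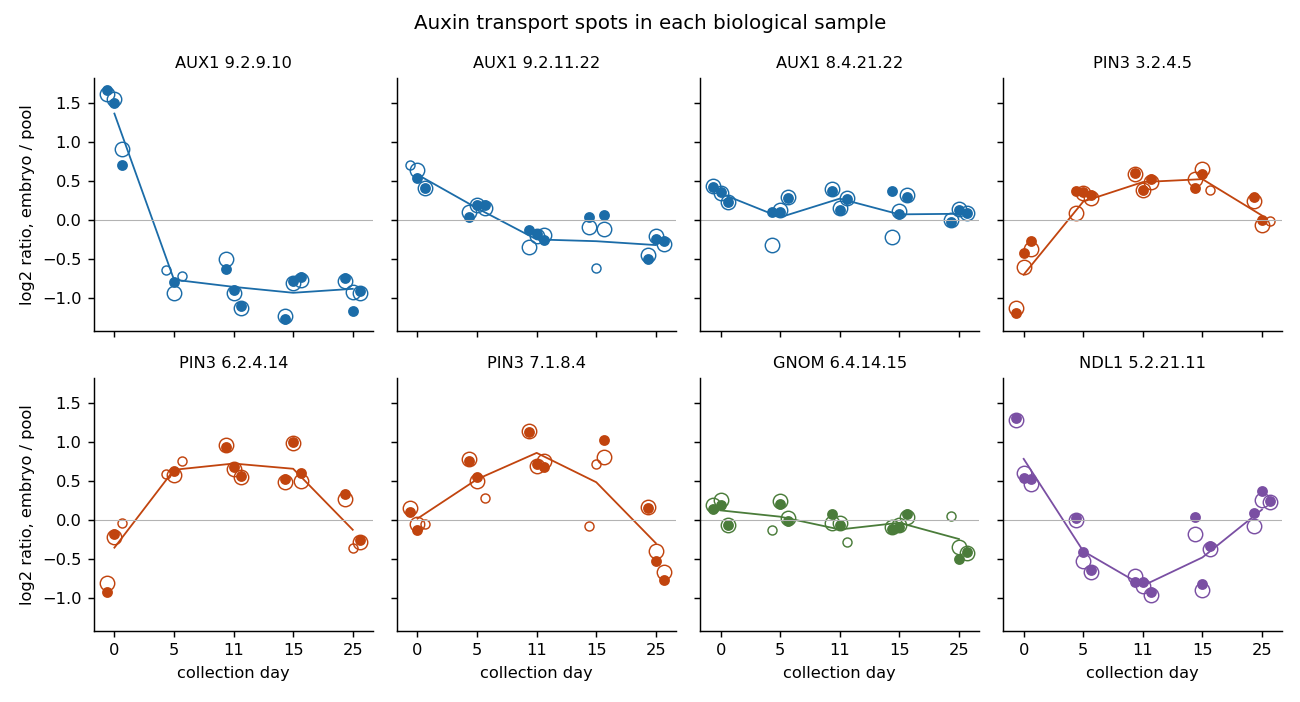
Log2 ratio of embryo over reference pool against collection day for the 8 auxin transport spots. Filled points are kept values of single samples, large open points are values with all arrays of a sample that had a kept array, small open points are samples with no kept array, and lines join day means over all values. AUX1 9.2.9.10 drops from 1.36 to -0.77 between Day0 and Day5, the PIN3 spots peak on the middle days, and NDL1 is lowest on Day11.

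The PIN3 spots moved the other way at the start. PIN3 3.2.4.5 had kept log2 ratios of -1.19, -0.43 and -0.27 on Day0. On Day5 its values were 0.38, 0.36 and 0.32, and on Day11 0.61, 0.39 and 0.52. On Day15 they were 0.41 and 0.59, and on Day25 0.29 and -0.00. Every later sample was above the 3 samples of Day0, of which sample 1 was the lowest. The rise from Day0 to Day5 was 0.98 (SE 0.20), 1.97-fold, with an adjusted p of 0.00949. At Day11 the level was 1.13 (SE 0.20) above Day0 (adjusted p = 0.00106), and at Day25 it was still 0.77 above Day0 (adjusted p = 0.0107, and 0.0842 without Day25 replicate 1).

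PIN3 6.2.4.14 gave a similar curve with marks ignored. Its log2 ratios were -0.81, -0.21 and -0.04 on Day0, 0.59, 0.58 and 0.76 on Day5 and 0.97, 0.65 and 0.55 on Day11. They were 0.48, 0.98 and 0.50 on Day15 and 0.27, -0.36 and -0.28 on Day25. The 9 samples of the middle days lay above all 6 samples of Day0 and Day25. The level rose by 1.00 (SE 0.21) from Day0 to Day5, 2.00-fold (adjusted p = 0.0101), and fell by 0.85 (SE 0.21) from Day11 to Day25, 1.80-fold (adjusted p = 0.0095, and 0.0502 without Day25 replicate 2). The last step alone, from Day15 to Day25, was -0.78 (adjusted p = 0.0305). It no longer passed without Day15 replicate 2 or 3 or Day25 replicate 2 or 3, with adjusted p up to 0.137.

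PIN3 7.1.8.4 started near the pool and ended below it. With marks ignored its values were 0.16, -0.05 and -0.05 on Day0 and 0.78, 0.51 and 0.28 on Day5. They were 1.14, 0.69 and 0.75 on Day11, -0.07, 0.72 and 0.81 on Day15 and 0.17, -0.40 and -0.66 on Day25. Day15 sample 1 stood apart from the other 2 of its day, and neither it nor sample 2 had a kept array. The level rose by 0.84 (SE 0.24) from Day0 to Day11, 1.79-fold (adjusted p = 0.0173, but 0.0535 without Day0 replicate 3 and 0.0764 without Day11 replicate 1), and fell by 1.16 (SE 0.24) from Day11 to Day25, 2.23-fold (adjusted p = 0.00302). The step from Day0 to Day5 was 0.50, with a 95% interval of -0.01 to 1.02 (adjusted p = 0.214). The last step, from Day15 to Day25, was -0.78 (adjusted p = 0.051), and it passed without Day15 sample 1 (-1.06, adjusted p = 0.00939).

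The middle days against the mean of Day0 and Day25 gave a rise for each of the 3 PIN3 spots, by 0.69 (SE 0.14), 0.92 (SE 0.14) and 0.76 (SE 0.16), with adjusted p between 0.000615 and 0.00545. Of all spots, 6.97% of those tested on kept values and 8.2% of all values rose in this comparison. In PIN3 3.2.4.5 the later fall by itself did not pass, at -0.36 from Day11 to Day25 and -0.35 from Day15 to Day25. Raw embryo signals of PIN3 3.2.4.5 were 1420 to 3824 units on Day0, 3911 to 7226 on the middle days and 3424 to 4918 on Day25. Those of PIN3 7.1.8.4 were 5514 to 11400 on Day0, 11700 to 13940 on Day5 and 12800 to 15940 on Day11. They were 6798 to 9930 on Day15 and 5261 to 10630 on Day25. For this spot the raw signals of Day15 thus lay within the range of Day0. The raw signals of Day0 sample 3 were higher than those of the other 2 in both channels, and its log2 ratio was the nearest to 0 of the day in PIN3 3.2.4.5 and 6.2.4.14.

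Although annotated to 1 unigene, the PIN3 spots did not all change alike from early to late days. That comparison takes in both the first rise and the later fall. On Day0 the mean with all values was -0.70 for 3.2.4.5 and 0.02 for 7.1.8.4. Early days (Day0 and Day5, 6 samples) were compared with late days (Day15 and Day25, 6 samples) on the difference between 2 spots in each sample, with all values, in an exact two-sided permutation test adjusted over the 3 pairs. PIN3 3.2.4.5 minus 6.2.4.14 was -0.38 on average in the early days and 0.02 in the late days (adjusted p = 0.0195). PIN3 3.2.4.5 minus 7.1.8.4 went from -0.50 to 0.20 (adjusted p = 0.0292). PIN3 6.2.4.14 minus 7.1.8.4 went from -0.13 to 0.17 (adjusted p = 0.236). Early and late ranges overlapped in all 3 pairs, and the count of pairs past the test was 1 or 2 when a sample was left out, 1 in the case of Day0 replicates 1 and 2, Day5 replicate 1, Day15 replicate 1 and Day25 replicates 2 and 3.

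Influx and efflux readings were then set against each other within samples. For the 9 pairs of an AUX1 and a PIN3 spot, the log2 ratio of AUX1 minus that of PIN3 was computed in each sample, and Day0 was set beside the 9 samples of Day5, Day11 and Day15. This split was chosen after the values had been seen, so it is given as a description with no test. In all 9 pairs every Day0 sample was higher than every sample of the middle days. AUX1 8.4.21.22 itself passed no day comparison on kept values (-0.18 from Day0 to Day5, -0.08 from Day0 to Day11), while the PIN3 spots rose. Its pairs therefore do not show a fall of that AUX1 spot. AUX1 9.2.9.10 minus PIN3 3.2.4.5 was 1.29 to 2.75 on Day0 and -1.77 to -0.725 on the middle days. AUX1 9.2.9.10 minus PIN3 6.2.4.14 was 0.96 to 2.43 and -1.79 to -1.23, respectively. From Day0 to the middle days the mean difference changed by -0.82 to -3.33 over the 9 pairs. Marks were ignored in 8 of the pairs, and AUX1 8.4.21.22 minus PIN3 3.2.4.5 was taken on kept values, with 8 middle samples. The 9 pairs share 6 spots and the same samples, and they are not 9 separate results.

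**Figure D3:**
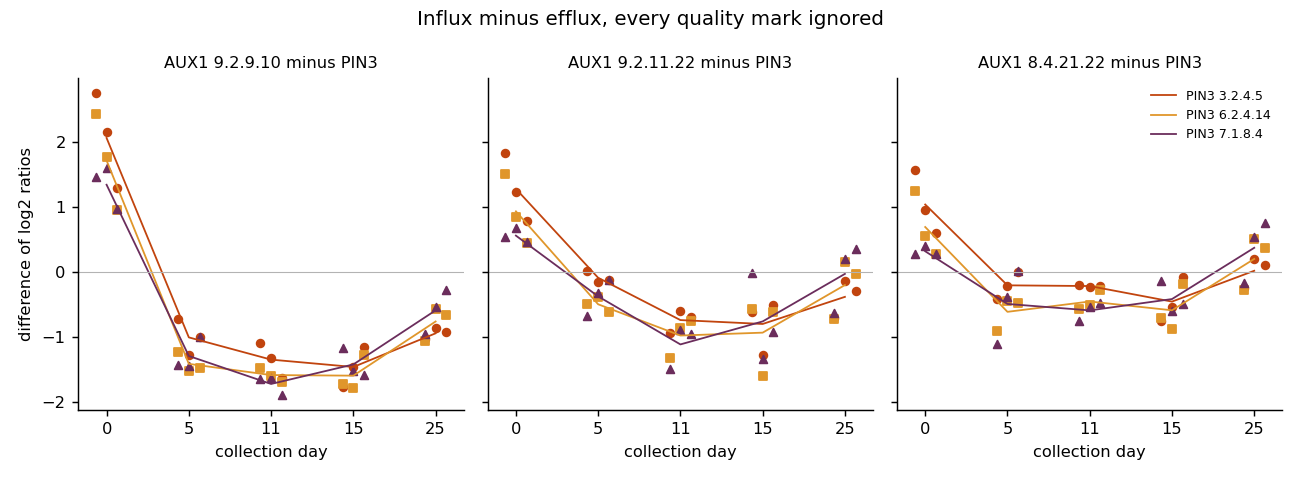
Difference of log2 ratios, an AUX1 spot minus a PIN3 spot, in each sample against collection day, with marks ignored. One panel is given per AUX1 spot, points are samples, lines join day means, and colours and symbols are the PIN3 spots; Day0 samples lie above the samples of Day5, Day11 and Day15 in all 9 pairs.

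Early days (Day0 and Day5) were also compared with late days (Day15 and Day25). Of the 9 pairs, 1 passed after adjustment: AUX1 9.2.11.22 minus PIN3 3.2.4.5 was 0.60 in the early and -0.59 in the late days (exact permutation p = 0.00433, adjusted p = 0.039). For AUX1 9.2.9.10 minus PIN3 3.2.4.5 the means were 0.53 and -1.20 (exact permutation p = 0.039, adjusted p = 0.175), with early samples spread from -1.28 to 2.75 since Day0 and Day5 lie on opposite sides. The 1 call was lost when a sample was left out in 10 of 12 cases, all but Day5 replicate 2 and Day25 replicate 2.

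GNOM 6.4.14.15 stayed close to the pool until Day15. Its kept values were 0.14, 0.19 and -0.06 on Day0 and 0.21 and -0.02 on Day5. They were 0.08 and -0.06 on Day11, -0.12, -0.09 and 0.08 on Day15, and -0.50 and -0.41 on Day25. The samples of the first 4 days overlapped, and both kept samples of Day25 lay below them. From Day0 to Day5, the step at which AUX1 9.2.9.10 fell and PIN3 3.2.4.5 and 6.2.4.14 rose, the change was 0.00 with a 95% interval of -0.30 to 0.31. From Day0 to Day25 it fell by 0.55 (SE 0.14), 1.46-fold (adjusted p = 0.00689, and 0.0524 without Day25 replicate 2). Day25 sample 1, which had no kept array, read 0.045 with marks ignored, and with it the change was -0.37 (adjusted p = 0.0522). The fall from Day11 to Day25 (-0.46, adjusted p = 0.0487) lost its call in 20 of 25 alternative settings. Over all 25 settings the adjusted p ranged from 0.0382 to 0.579.

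NDL1 5.2.21.11, a bright spot kept in all 15 samples, was higher at both ends than in the middle. Its log2 ratios were 1.31, 0.54 and 0.52 on Day0, 0.02, -0.41 and -0.64 on Day5 and -0.79, -0.80 and -0.92 on Day11. They were 0.03, -0.82 and -0.34 on Day15 and 0.09, 0.37 and 0.25 on Day25. All samples of Day11 were below all samples of Day0, Day5 and Day25. The level fell by 1.13 (SE 0.23) from Day0 to Day5, 2.19-fold (adjusted p = 0.00874), and by 1.63 (SE 0.23) from Day0 to Day11, 3.09-fold (adjusted p = 0.000182). It then rose by 1.07 (SE 0.23) from Day11 to Day25, 2.10-fold (adjusted p = 0.00447). Against the mean of both ends, the middle days were lower by 1.03 (SE 0.15, adjusted p = 0.000571), a direction in which 9.29% of the spots tested on kept values changed. The net change from Day0 to Day25 was -0.56, with an interval of -1.05 to -0.06 (adjusted p = 0.0616).

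Since the NDL1 cDNA is also tied to unigene 5829, it was set beside the 3 XTH spots of that unigene. XTH 1.1.16.21 had kept values of 2.22, 1.54 and 1.27 on Day0, -0.74, -1.01 and -1.25 on Day11 and -1.28, -1.63 and -1.58 on Day25. All 3 XTH spots fell, with log2 changes of -1.67 to -2.09 from Day0 to Day5 and 8.01-fold to 12.5-fold from Day0 to Day25 (adjusted p between 1.45e-07 and 1.03e-06). From Day11 to Day25 they changed by -0.50, -0.71 and -0.76, of which the second (taken with marks ignored, adjusted p = 0.0309) passed and the other 2 did not, while NDL1 rose. NDL1 minus an XTH spot was -0.24 to 0.33 on Day11 and 1.25 to 2.01 on Day25 over the 3 spots, with no overlap between the days. This comparison was not planned and is given as a description. An exact permutation test of 3 samples against 3 can give no p below 0.1, so it could not decide. All 4 spots fell from Day0 to Day11, and from Day11 to Day25 NDL1 rose and none of the XTH spots did. How much XTH transcript the NDL1 spot also reads was not tested.

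**Figure D4:**
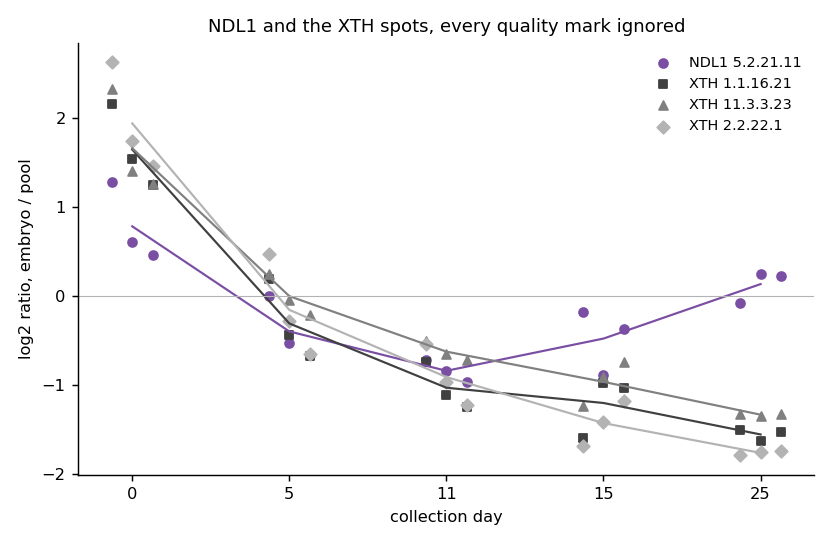
Log2 ratio of embryo over reference pool against collection day for NDL1 5.2.21.11 and the 3 XTH spots of unigene 5829, with marks ignored, points for samples and lines through day means. The 4 curves fall together to Day11, after which NDL1 turns up to 0.13 on Day25 and the XTH spots go on to day means between -1.77 and -1.34.

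Counted over all 8 members, 4 passed the test from Day0 to Day5, against 7.7% of all spots tested on kept values and 8.43% in the fit of all values. PIN3 3.2.4.5 and 6.2.4.14 rose (background 2.94% and 3.46%), and AUX1 9.2.9.10 and NDL1 fell (4.76% and 4.97%). From Day5 to Day11, 0 members passed in limma, where 0.889% and 1.82% of all spots rose and 0.689% and 1.41% fell, and 1 member (AUX1 9.2.11.22) had an unadjusted p under 0.05. From Day11 to Day15, 0 members passed in limma, as did 0% of all spots in both fits, and 0 members had an unadjusted p under 0.05. From Day15 to Day25, 1 passed, the fall of PIN3 6.2.4.14 (background 9.03% and 10.7% in either direction, 3.5% and 4.35% falling). From Day0 to Day11, 6 passed, 3 PIN3 spots up and AUX1 9.2.9.10, AUX1 9.2.11.22 and NDL1 down (background 24.8% and 27.8%). From Day11 to Day25, 4 passed, with NDL1 up and PIN3 6.2.4.14, PIN3 7.1.8.4 and GNOM down (background 22.9% and 26.4%). From Day0 to Day25, 4 passed, PIN3 3.2.4.5 up and AUX1 9.2.9.10, AUX1 9.2.11.22 and GNOM down, a share close to the 47.2% and 50.7% of all spots. The mean of the middle days differed from the mean of Day0 and Day25 in 5 members (background 16.3% and 18.2% in either direction). The 3 PIN3 spots were up (background 6.97% and 8.2% rising) and AUX1 9.2.9.10 and NDL1 down (9.29% and 10% falling). For AUX1 9.2.9.10 the change from Day11 to Day25 was -0.03, and PIN3 3.2.4.5 did not pass from Day11 to Day25. A regression on day and its square, with an R-squared of 0.7 or more at a false discovery rate below 0.01, took in 6 members, all but AUX1 8.4.21.22 and PIN3 7.1.8.4 (R-squared 0.302 and 0.654), beside 28% and 29.4% of all spots. GNOM lost this call in 6 of 25 alternatives, among them marks ignored (R-squared 0.387, false discovery rate 0.0872), 1 loess per array (0.0136), scaled ratios (0.0113) and Day25 replicate 2 or 3 left out (0.0373 and 0.0144). AUX1 9.2.11.22 lost it without Day0 replicate 2 or 3 (0.0181 and 0.0116). The median change of the 8 members from Day0 to Day5 was -0.09, beside 0.02 over all spots, since rises and falls cancelled.

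Other spots of auxin transport were listed from the study's annotation, 11 in all, 7 of them from its tables of changed spots. From Day0 to Day25, 7 rose and none fell, 4 of the 7 being ROP6 spots of 1 unigene and so repeated readings, against a background of 23.6% and 25.2% of spots that rose, and their median change was 0.69 beside -0.02 over all spots. None of the 11 passed from Day0 to Day5, where 7.7% of the spots tested on kept values and 8.43% of all values passed in either direction. LAX3 4.1.21.19, which stands for a second influx carrier of the AUX1 family, had log2 ratios of -0.99, -0.48 and -0.82 on Day0 and 0.22, 0.00 and 0.13 on Day11. It rose by 0.88 (SE 0.17, adjusted p = 0.0014), against the direction of AUX1 9.2.9.10 and 9.2.11.22. PIN2, a second efflux carrier, had -1.21, -0.73 and -0.65 on Day0, 0.09, 0.03 and 0.29 on Day11 and 0.41, 0.78 and 0.88 on Day25. It rose by 1.00 (SE 0.17) to Day11 (adjusted p = 0.000613) and by a further 0.56 to Day25 (adjusted p = 0.0258), where PIN3 6.2.4.14 and 7.1.8.4 fell. The differences between LAX3 and AUX1 and between PIN2 and PIN3 were not tested themselves. As with NDL1, the LAX3 spot is tied to more than 1 unigene (60053 and 28725), and so is the PIN2 spot (1093 and 28179). How much each unigene adds to these readings was not tested.

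ROP6, a small GTPase that in *A. thaliana* restrains the internalization of PIN proteins, was read by 4 spots of 1 unigene (5441). None of their steps before Day15 passed the test, and they rose by 1.21 to 1.36 from Day15 to Day25, 2.32-fold to 2.56-fold (adjusted p between 0.000368 and 0.00325, background 5.53% rising on kept values and 6.38% on all values). In spot 3.1.8.21 the kept samples of Day25 read 0.99 to 1.06 and all earlier ones -0.86 to -0.25. ABCB1 8.1.19.7, an efflux carrier of another family, changed by 0.21 from Day0 to Day25 (adjusted p = 0.371), and BIG 3.4.10.18, needed for auxin transport in *A. thaliana*, by 0.40 (adjusted p = 0.111). SNX1 8.1.14.22, a sorting nexin of the recycling route of PIN2, and PP2A subunit A2 3.2.9.24, of a phosphatase that acts on PIN proteins, changed by 0.52 and 0.20 and did not pass. WAT1 1.3.17.16, an auxin transporter of the vacuole, rose by 0.61 (adjusted p = 0.00575).

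**Figure D5:**
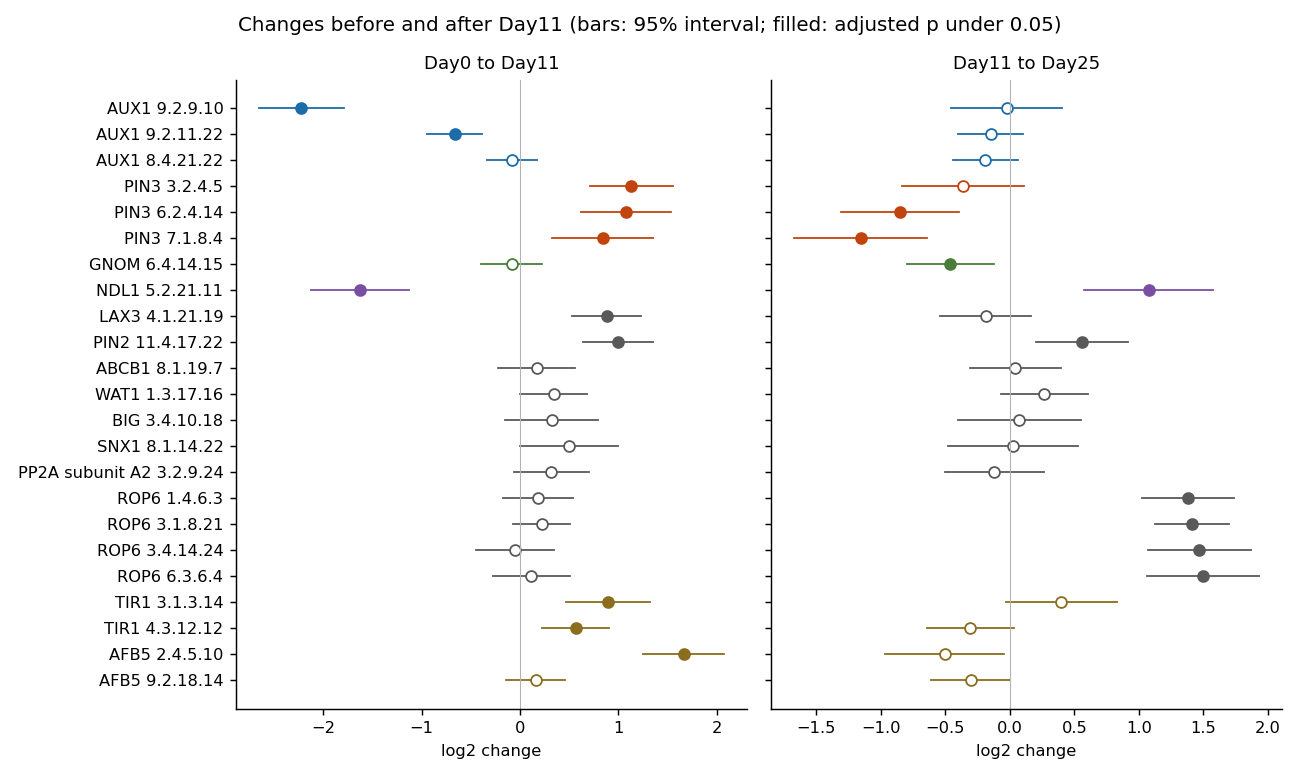
Log2 change from Day0 to Day11 and from Day11 to Day25 for the 8 members (coloured), the 11 other auxin transport spots (grey) and the 4 auxin receptor spots (ochre), with 95% intervals from the fit and filled points where the adjusted p is under 0.05. AUX1 9.2.9.10 falls by 2.22 in the first interval while the 3 PIN3 spots rise by 0.84 to 1.13, and the 4 ROP6 spots rise by 1.38 to 1.49 in the second.

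Auxin receptors, the F-box proteins that bind auxin in the nucleus, were read by 4 spots, 2 of them from tables of changed spots. From Day0 to Day11, 3 of the 4 rose, where 24.8% and 27.8% of all spots passed in either direction, rises and falls together. AFB5 2.4.5.10 had log2 ratios of -2.03, -1.17 and -1.47 on Day0 and -0.02, -0.32 and -0.29 on Day5, with no overlap. It rose by 1.35 (SE 0.19) from Day0 to Day5, 2.54-fold (adjusted p = 0.00123), and fell by 0.99 from Day15 to Day25 (adjusted p = 0.0192). TIR1 3.1.3.14 and TIR1 4.3.12.12 rose by 0.89 and 0.57 to Day11 (adjusted p = 0.0068 and 0.0171), and AFB5 9.2.18.14, of the same unigene as the other AFB5 spot, changed by 0.16 (adjusted p = 0.439).

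GNOM acts in vesicle traffic, for which 12 further spots were listed, all of them from tables of changed spots. A high count of calls among them is therefore not independent evidence of change, and the shares over all spots do not test the list. The same holds for the LEA spots, and in part for the other auxin transport and receptor spots. From Day0 to Day25, 8 fell and 4 rose, where 47.2% and 50.7% of all spots passed in either direction, and their median change was -0.77 beside -0.02 over all spots. RABH1E 5.2.2.5 (a Rab GTPase of the Golgi), VAMP711 6.2.20.7 (a SNARE of the vacuole), SYP132 5.1.12.2 (a syntaxin of the plasma membrane) and the coatomer beta subunit (of the coat of Golgi vesicles) fell already from Day0 to Day5, with changes of -0.64 to -1.12 (background 4.76% and 4.97% falling), while GNOM changed by 0.00. Epsin 6.1.17.22, a clathrin adaptor, rose by 2.02 (SE 0.29) from Day0 to Day11, 4.07-fold (adjusted p = 0.00031). The Got1/Sft2-like spot 7.3.4.7, of a Golgi transport protein, rose by 0.81 to Day11 and fell by 1.70 from Day11 to Day25 (adjusted p = 0.00438 and 3.52e-05), with marks ignored.

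Likeness of curves was measured as Pearson's r over samples, given as a description, for members with at least 12 kept samples and among spots with a name in the study's tables, which mostly list changed spots. AUX1 9.2.9.10 was most like a carbonic anhydrase 2 spot (3.2.19.11, r = 0.986 over 13 samples, among 949 spots), and AUX1 9.2.11.22 was most like an early nodulin-like protein 8 spot (3.4.5.7, r = 0.957 over 12). PIN3 3.2.4.5 came near a KNOTTED-like homeobox spot (10.1.13.21, r = 0.941 over 13), after a pair of unnamed proteins. GNOM was nearest to a mitogen-activated protein kinase (2.1.17.9, r = 0.952 over 12) and to dicer-like 1 (r = 0.931 over 12). For NDL1 the first was a Ras-related GTP-binding protein (6.2.23.10, r = 0.931 over 13). AUX1 8.4.21.22 had no named spot above 0.733. All curves share the same samples and the same reference pool.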

How the data were processed

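Embryo RNA of 15 biological samples was hybridized with a common reference pool on 30 arrays. The authors deposited spot and background intensity of both channels without normalization, with quality marks of 0 or 1, and log2 ratios normalized by print-tip and cyclic loess. Ratios were recomputed with limma 3.58.1 (R 4.3.3; statmod 1.5.0 for array correlation), with no background correction, unmarked spots left out, print-tip loess over 48 tips (span 0.3, 4 iterations) and cyclic loess over both channels (3 iterations). They correlated with the authors' log2 ratios at 0.993 to 0.999 per array. Technical replicates were averaged, spots with values in at least 2 samples of every day were tested with limma in 1 fit of all samples, and p was adjusted over all tested spots (Benjamini-Hochberg, 0.05). Members not testable so came from the same fit with marks ignored. Standard errors are those of the fit. The test was tested on simulated data. Pairs of spots were compared by exact permutation (scipy 1.17.1). The members and lists were chosen with earlier results of these data known. Named spots are the members, the lists fixed with them, and the 3 named spots most like each member. The marks' meaning was read from the values: a log2 ratio of the authors stands only at spots where both equal 1. The number of arrays limits the precision. The alternatives were normexp background correction (offset 50), a single loess per array, cyclic loess on ratios, scaling of ratios, no step between arrays, no marks filter, values in all samples, the authors' ratios, 30 arrays with an estimated correlation, a replicate block and each sample left out.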

Additional observations from a re-analysis of the deposited data

How the results depend on the processing

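Over 24 or 25 alternatives per comparison, no member that passed a test changed direction. The falls of AUX1 9.2.9.10 and NDL1 and the rises of PIN3 3.2.4.5 and 6.2.4.14 from Day0 to Day5 kept their calls in every alternative that gave them a value. With the authors' log2 ratios only 5 members could be tested. Of these, 2 passed from Day0 to Day5, 3 from Day0 to Day11 and 1 from Day11 to Day25. For the middle days against the mean of both ends 2 passed, and from Day15 to Day25 0 passed. From Day15 to Day25, 2 members passed with 1 loess per array, with no between-array step and with cyclic loess on log2 ratios. With the 30 arrays 3 passed, at an estimated correlation of 0.66 on kept values and 0.645 with marks ignored. Cyclic loess on log2 ratios left 3 members past the time course test (AUX1 9.2.11.22, GNOM and, added, PIN3 7.1.8.4), the 4 lost having R-squared of 0.67 to 0.69. Leaving out 1 sample gave 0 to 2 members from Day15 to Day25 (0 without Day15 replicate 2 or 3 or Day25 replicate 2 or 3, and 2 without replicate 1 of Day0, Day15 or Day25), 2 to 4 from Day11 to Day25 (2 without Day25 replicate 2), 0 to 1 of the AUX1 and PIN3 pairs and 1 to 2 of the PIN3 pairs between early and late days. The cause of these changes was not tested. With the replicate number as a block, 5 members passed from Day0 to Day25 (4 without it, NDL1 being added with an adjusted p of 0.0354) and 3 from Day11 to Day25 (4 without it, GNOM being lost with 0.114). The labels do not say that a number marks a shared batch, 14 of 30 pairs of same-numbered samples had deviations correlated above 0.1, and 5 of 15 samples were nearest to their own number. The authors' log2 ratios gave no value for the early and late pairs.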
